A study of Mesocricetus auratus with 24 samples.

Results

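Mboat1 and Mboat2, the 2 membrane-bound O-acyltransferases followed here, are rows ENSMAUG00000017913 and ENSMAUG00000005505 of a table of read counts for 22283 hamster genes, and both were among the 13134 genes with enough counts to be tested. They were chosen because the study lists them among metabolic genes that differ between HFD and HFD-T070 5% livers, so that difference is described below without a test. The table carries identifiers only, and the symbols come from that list. Gene lengths, coordinates and sequences of these rows were not analysed here.

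Both genes encode lysophospholipid acyltransferases, integral proteins of the endoplasmic reticulum membrane. Such enzymes attach a fatty acyl chain to a lysophospholipid and so rebuild a phospholipid after a phospholipase has removed one of its chains, a remodelling cycle that sets the acyl composition of membranes. Mboat1 is known for acylating lysophosphatidylserine and lysophosphatidylethanolamine, and Mboat2 for acylating lysophosphatidylethanolamine and lysophosphatidic acid, each with a preference for unsaturated chains. In liver, phospholipid remodelling accompanies the storage of neutral lipid and the assembly of lipoproteins.

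Snap-frozen livers of 24 male golden Syrian hamsters, labelled as wild type, gave 1 library each, with 8 hamsters on the normal diet (ND), 8 on the high-fat diet (HFD, rich in hydrogenated coconut oil, fructose and cholesterol) and 8 on the HFD with 5% by weight of the plant-extract mixture Totum-070 (HFD-T070 5%). Diets began at 8 weeks of age, after a period on ND that all groups shared, and lasted 12 weeks by the methods and 6 weeks by the labels. Hamsters shared cages, and which of them did so is not given in the sources used here. The livers were bulk tissue, so a change in the number of cells of a type and a change in RNA per cell cannot be told apart.

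Total counts per library ran from 10789142 (HFD replicate 7) to 20740364. HFD replicates 1 and 7 stood apart from their group. Across the log2 CPM values (counts scaled to a common library size) of all genes tested, the library labelled HFD replicate 1 had a Pearson r of 0.990 with the ND mean and of 0.931 with the mean of the other HFD libraries, which had 0.908 to 0.958 with the ND mean. HFD-T070 5% replicate 5 had the highest r with that HFD mean in its group, at 0.992, against 0.977 to 0.987 for the rest of the group. HFD replicate 7 had an r of 0.950 with the mean of the other HFD libraries, replicate 1 left out, and 0.908 with the ND mean. The remaining HFD libraries had 0.982 to 0.995 with the HFD mean taken in the same way. Comparisons of the members and of the lipid enzymes with the HFD group are given with and without HFD replicate 1.

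Mboat1 was scarce in livers of the ND group. Its counts ran from 2 to 7 per library with a median of 4.5, which corresponds to 0.306 ± 0.120 CPM (TMM-scaled; SD, n = 8). In the HFD group the counts ran from 5 to 69 with a median of 41.5, with a mean of 1.80 CPM and an SD of 0.919 CPM over the 8 libraries. The supplemented group (HFD-T070 5%) had counts that ran from 7 to 22 with a median of 14.5, and 0.829 ± 0.263 CPM was measured (SD, n = 8). The ND libraries were thus lowest, the HFD libraries highest and the supplemented ones between, with overlap at the edges of each pair of groups.

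The HFD group showed the widest spread of Mboat1, and it had a distinct low member. HFD replicate 1 had 5 counts (0.348 CPM), inside the ND range of 0.136 to 0.472 CPM, whereas the other 7 HFD libraries had 1.07 to 3.11 CPM and lay above every ND library. Without HFD replicate 1 the HFD mean was 2.01 ± 0.765 CPM (SD, n = 7). Replicates 2 and 7, at 1.07 and 1.10 CPM, were next lowest.

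Mboat2 had 1 to 10 counts per ND library, with a median of 4 and a level of 0.298 ± 0.193 CPM (SD, n = 8). In the HFD group it had 1 to 46 counts with a median of 26, with a mean of 1.20 CPM and an SD of 0.678 CPM over the 8 libraries. Under HFD-T070 5% it had 3 to 17 counts with a median of 6.5, or 0.441 ± 0.238 CPM (SD, n = 8). Here the order of the groups was the same, but the supplemented libraries lay mostly among the ND libraries.

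HFD replicate 1 had a single count of Mboat2 (0.0697 CPM), close to the lowest ND library at 0.0627 CPM. The other HFD libraries had 0.600 to 2.07 CPM, all above the highest ND library at 0.596 CPM, and their mean was 1.36 ± 0.541 CPM (SD, n = 7). HFD replicate 7, the shallowest library, held the lowest of these values with 6 counts.

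**Figure D1:**
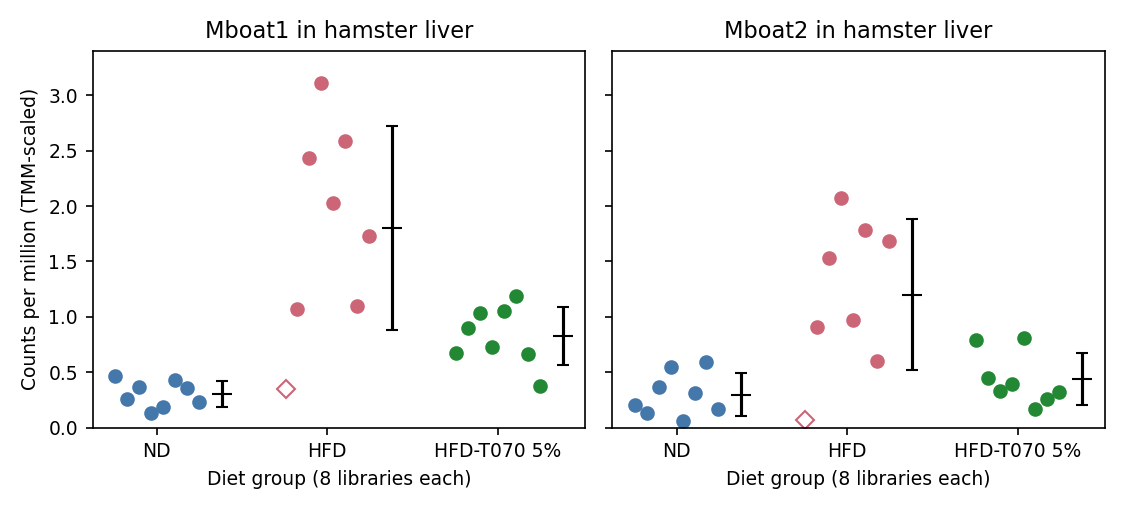
TMM-scaled CPM of Mboat1 (left) and Mboat2 (right) in each library by diet group; each point is 1 hamster, the open diamond is the library labelled HFD replicate 1, and bars show mean ± SD (n = 8). For both genes 7 HFD libraries lay above all ND libraries and HFD replicate 1 lay in the ND range, while the HFD-T070 5% means were 0.829 CPM for Mboat1 and 0.441 CPM for Mboat2. For Mboat2 the lowest of these 7, HFD replicate 7, had 0.600 CPM, against 0.596 CPM in the highest ND library.

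Counting error was as large as the spread between ND libraries for Mboat1, but not in the HFD group. For Mboat1 in the ND group the coefficient of variation between libraries was 39.1%, and counting alone would give about 45.9% at the mean count. For Mboat2 in the ND group the values were 64.9% and 46.5%. In the HFD group the spread was well above counting error for both genes, with 51.1% against 16.5% for Mboat1 and 56.4% against 20.1% for Mboat2. Summed over the 8 ND libraries, Mboat1 had 38 counts (exact 95% Poisson interval 26.9 to 52.2) and Mboat2 had 37 (26.1 to 51.0). The sums in the HFD group were 294 (261.4 to 329.6) and 198 (171.4 to 227.6), and in the HFD-T070 5% group 123 (102.2 to 146.8) and 66 (51.0 to 84.0). These intervals cover counting error only.

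The first comparison asks how the HFD moved each enzyme's transcript. Mboat1 rose 5.98-fold, by 2.58 on the log2 scale (standard error 0.35), with an adjusted p = 1.96e-06 in edgeR's quasi-likelihood test over all genes. Mboat2 also rose, by 2.06 on the log2 scale (standard error 0.42), or 4.16-fold, with an adjusted p = 2.80e-04 in the same test. Both were called, whereas 27.3% of the genes tested were called higher in HFD than in ND and 53.6% were called in either direction. With library totals in place of TMM, 6608 of 7737 calls were upward instead of 3592 of 7044. The ND libraries had no part in the choice of the genes, but the HFD libraries did, which favours a high HFD mean. Both genes entered the test through the fit of all 3 groups. ND counts were at most 7 for Mboat1 and 10 for Mboat2, so both passed the count filter mainly through the HFD and HFD-T070 5% libraries. The adjusted p-values against ND are therefore no independent evidence. Neither passed the count filter with only HFD and ND in the fit.

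For both genes HFD replicate 1 was the only HFD library inside the ND range and the other 7 lay above every ND library. For Mboat2 this rested on a near tie. HFD replicate 7 had 0.600 CPM on 6 counts, and ND replicate 7 had 0.596 CPM on 10 counts. At least 7 of the 8 HFD libraries lay above every ND library for 14.0% of the genes tested. Without HFD replicate 1, the log2 fold change was 2.75 for Mboat1 (standard error 0.28, adjusted p = 1.29e-08 from edgeR) and 2.24 for Mboat2 (standard error 0.34, adjusted p = 5.61e-06). With all libraries in the fit, 2.25% of the genes tested had a larger log2 fold change than Mboat1 (2.58), and 3.84% a larger one than Mboat2 (2.06). The choice of the genes favoured such high places, so these shares are a description only.

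The second comparison sets the supplemented livers against ND, and here the calls of the paralogs parted. Mboat1 was higher in HFD-T070 5% than in ND, with a log2 fold change of 1.42 (standard error 0.39), or 2.68-fold, and an adjusted p = 0.00473 from edgeR. In 7 of 8 HFD-T070 5% libraries it exceeded every ND library, and replicate 8, at 0.381 CPM, lay in the ND range. For Mboat2 the log2 fold change was 0.57 (standard error 0.50, 95% interval −0.47 to 1.60), with an adjusted p = 0.368 from edgeR. Of the HFD-T070 5% libraries, replicates 1 and 5, at 0.792 and 0.811 CPM, exceeded every ND library for Mboat2, and the other 6 did not.

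In this comparison 22.3% of the genes tested were called higher, and 14.7% had at least 7 of the 8 HFD-T070 5% libraries above every ND library, as Mboat1 did. With library totals in place of TMM, 5146 of 6053 calls were upward instead of 2925 of 5689. Without HFD-T070 5% replicate 5, which resembled the HFD libraries most, the log2 fold change was 1.36 for Mboat1 (adjusted p = 0.0104 from edgeR) and 0.37 for Mboat2 (adjusted p = 0.600). The HFD-T070 5% libraries were used in the choice of the genes, which favours a low level in them. With only HFD-T070 5% and ND in the fit, neither gene passed the count filter. This comparison and the preceding one share the ND libraries.

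The third comparison is the one for which the genes were chosen. Mboat1 was lower in HFD-T070 5% than in HFD with a log2 fold change of −1.16 (standard error 0.28), a 2.23-fold difference. For Mboat2 it was −1.49 (standard error 0.38), a 2.81-fold difference. Of the HFD libraries, 5 lay above all HFD-T070 5% libraries for Mboat1, and 6 did for Mboat2. The libraries below that line were HFD replicates 1, 2 and 7 for Mboat1 and replicates 1 and 7 for Mboat2. These counts only describe the contrast the genes were chosen on. The share of all genes with such counts was not computed. Without HFD replicate 1 the log2 fold changes were −1.31 (standard error 0.23) and −1.66 (standard error 0.31). Over all genes tested, 3.08% were called lower in HFD-T070 5% than in HFD, and no weight is placed on the members' place among them.

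**Figure D2:**
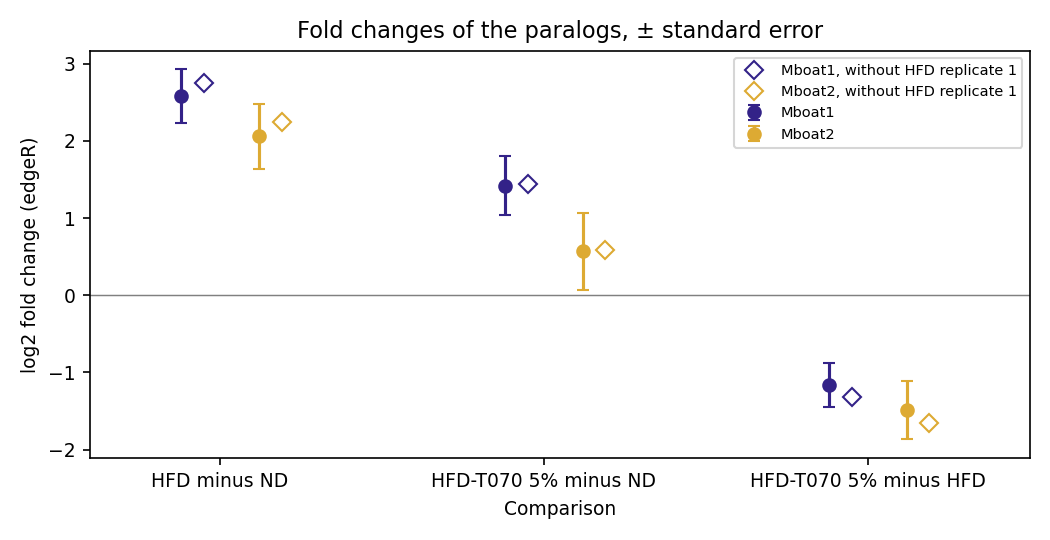
Log2 fold changes of Mboat1 and Mboat2 from the edgeR fit in the 3 comparisons; filled points use all 24 libraries, with bars of 1 standard error, and open diamonds leave out HFD replicate 1. Both genes were above 0 in HFD minus ND (2.58 and 2.06), Mboat1 stood above Mboat2 in HFD-T070 5% minus ND (1.42 and 0.57), and both were below 0 in HFD-T070 5% minus HFD, the contrast the genes were chosen on.

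Whether the paralogs responded unequally was tested with their ratio within each library, log2 of (Mboat2 count + 0.5)/(Mboat1 count + 0.5), which needs no scaling between libraries. Its own level cannot be read as relative abundance, since the lengths of the gene models were not at hand, but its change between groups can. The ratio was −0.19 ± 1.00 in ND, −0.72 ± 0.56 in HFD and −0.96 ± 0.89 in HFD-T070 5% (SD, n = 8 each). The group means fell in that order, and the ranges overlapped widely, from −1.22 to 1.77 in ND, −1.87 to −0.04 in HFD and −2.62 to 0.21 in HFD-T070 5%.

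The difference from ND was −0.53 for HFD (95% interval by permutation −1.40 to 0.30; exact two-sided permutation test, p = 0.225) and −0.77 for HFD-T070 5% (−1.78 to 0.22; exact two-sided permutation test, p = 0.133). Both had a Benjamini–Hochberg adjusted p of 0.225 over the 2 exact tests. Without HFD replicate 1 the difference for HFD was −0.37 (exact two-sided permutation test, adjusted p = 0.409). Without ND replicate 4, which had 2 counts of Mboat1 and 8 of Mboat2, the differences were −0.25 and −0.49 (exact two-sided permutation tests, adjusted p = 0.448 for both). No unequal response of the paralogs was detected by these tests, although Mboat1 was called and Mboat2 was not in HFD-T070 5% compared with ND. Between HFD-T070 5% and HFD the ratio differed by −0.24, which is given as a description. Without HFD-T070 5% replicate 6, which had 21 counts of Mboat1 and 3 of Mboat2, that difference was 0.0021.

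Summed over libraries, Mboat2 made up 49.3% of the 75 counts of both genes in ND (95% Wilson interval 38.3% to 60.4%), 40.2% of 492 in HFD (36.0% to 44.6%) and 34.9% of 189 in HFD-T070 5% (28.5% to 42.0%). Mboat2 had fewer counts than Mboat1 in 5 of 8 ND libraries, 8 of 8 HFD libraries and 7 of 8 HFD-T070 5% libraries. The exception in the last group was replicate 1, with 14 counts of Mboat2 and 12 of Mboat1. The intervals treat the summed counts as 1 sample and cover counting error only.

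**Figure D3:**
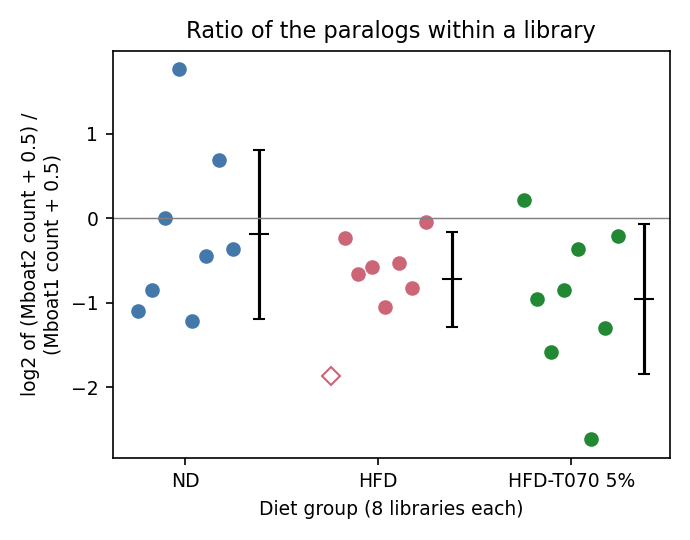
Log2 ratio of Mboat2 to Mboat1 counts, with 0.5 added to each, in every library by diet group; the open diamond is HFD replicate 1 and bars show mean ± SD (n = 8). The means were −0.19, −0.72 and −0.96 in ND, HFD and HFD-T070 5%, and the spread of single libraries was wider than these differences.

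Within the HFD group the levels of the paralogs were correlated over all 8 libraries, a pattern shared with many other genes. The log2 CPM values had a Pearson r of 0.951 (exact permutation p = 0.00193, adjusted p = 0.0116) and a Spearman rho of 0.905 (exact permutation p = 0.00456, adjusted p = 0.0137), adjusted over the 6 values from 3 groups. HFD replicate 4 was highest for both genes, and HFD replicate 1 was lowest for both. Without replicate 1 the Pearson r was 0.846 (exact permutation p = 0.0188, adjusted p = 0.0714), and without replicates 1 and 2, the farthest from the median of Mboat1, it was 0.856 (n = 6, exact permutation p = 0.0306, adjusted p = 0.175). The adjusted call in HFD thus rested on HFD replicate 1. Over the same 8 libraries 239 of the other 13133 genes tested had an r with Mboat1 at least as high as that of Mboat2. In turn, 306 of the other 13133 had an r with Mboat2 at least as high as that of Mboat1. Without replicate 1 these numbers were 711 and 688. Pla2g7, described below, had r = 0.959 with Mboat1 and 0.962 with Mboat2 over the 8 libraries, and 0.903 and 0.812 without replicate 1.

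The other groups gave values nearer 0. The Pearson r was 0.131 in ND (n = 8, exact permutation p = 0.749) and −0.0277 in HFD-T070 5% (n = 8, exact permutation p = 0.947), and rho was 0.167 (exact permutation p = 0.703) and 0.0952 (exact permutation p = 0.840). Without the 2 libraries farthest from the median, r was 0.411 in ND (n = 6, exact permutation p = 0.429) and 0.186 in HFD-T070 5% (n = 6, exact permutation p = 0.668). Counts of 1 to 22 per library in these groups limit what a correlation can show, and the difference in r between groups was not tested.

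**Figure D4:**
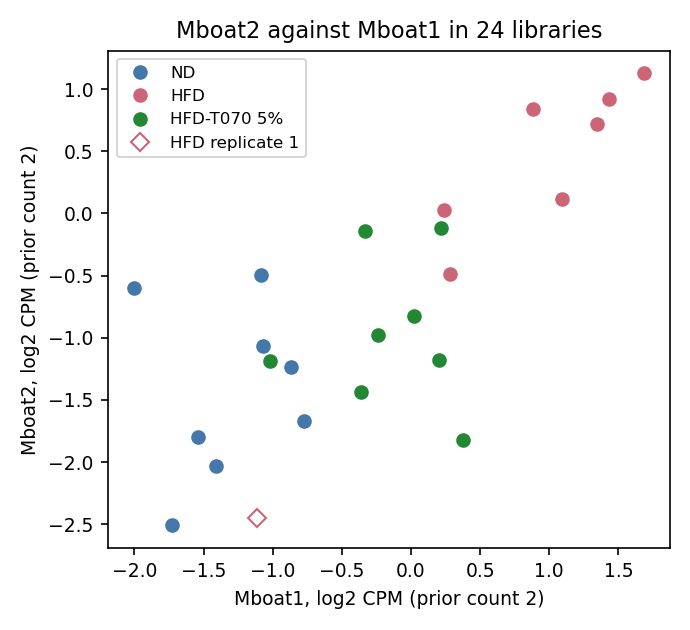
Log2 CPM of Mboat2 against Mboat1, with a prior count of 2, for the 24 libraries coloured by diet group; the open diamond is HFD replicate 1. The other 7 HFD libraries lie toward the upper right. HFD replicates 2 and 7 overlap the HFD-T070 5% libraries in Mboat1, and HFD replicate 7 does so in Mboat2. HFD replicate 1 lies among the ND libraries, and within HFD the points follow a line (r = 0.951 with replicate 1, 0.846 without it).

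Over all 24 libraries Mboat1 had a Pearson r above 0.8 with 1180 of the other 13133 genes tested, and Mboat2 with 251, so likeness of pattern was common. These values describe libraries that share group means and scaling, and they carry no p. Mboat2 ranked 1429 among the genes most like Mboat1 (r = 0.773), and Mboat1 ranked 455 among those most like Mboat2. The gene most like Mboat1 was ENSMAUG00000014163 (r = 0.948), which the table does not pair with a symbol. Only 16 genes, the paralogs included, had a symbol. All were listed by the study as differing between HFD and supplemented livers, a choice that favours a shared pattern. Of these genes Pla2g7 was most like Mboat1 (r = 0.925, rank 50), and genes without a symbol held all higher ranks. Pla2g7 encodes the phospholipase that degrades platelet-activating factor and oxidised phospholipids. The gene most like Mboat2 was ENSMAUG00000010552 (r = 0.902), and of the genes with a symbol it was Mthfd2, a mitochondrial enzyme of one-carbon metabolism (r = 0.851, rank 45).

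The paralogs were set beside 7 other enzymes of lipid metabolism for which the study pairs an identifier with a symbol, among them Pla2g7, Alox5, Lipg, Acly and Sqle. All were chosen on the same contrast of HFD-T070 5% with HFD, so their counts are no independent evidence. In HFD compared with ND, 4 of the 7 were higher, 1 was lower and 2 were not called by edgeR, with a median log2 fold change of 1.68 against −0.03 over all genes tested. Without HFD replicate 1, 4 were higher and 3 were lower, with a median of 1.84 against −0.01. In that fit 7673 of the 13218 genes tested were called in either direction, 4030 of them higher. In HFD-T070 5% compared with ND, with all libraries, 4 of the 7 enzymes were higher and 3 were lower, with a median of 0.66 against −0.01. Over all 13134 genes tested, 27.3% were called higher and 53.6% in either direction in HFD compared with ND. For HFD-T070 5% compared with ND, 22.3% were called higher, and 5689 genes were called in either direction.

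Pla2g7 and Alox5, which act on phospholipids and on the arachidonic acid released from them, rose in HFD as Mboat1 and Mboat2 did, with adjusted p = 5.74e-08 and 1.44e-06 from edgeR. Pla2g7 went from 6.98 ± 1.70 CPM in ND to 66.3 ± 32.0 CPM in HFD and 33.1 ± 6.43 CPM in HFD-T070 5% (SD, n = 8 each). Alox5, the 5-lipoxygenase of leukotriene synthesis, went from 0.191 ± 0.125 CPM to 2.43 ± 1.60 CPM and 0.973 ± 0.369 CPM. Both were called higher than ND in both HFD-fed groups, with log2 fold changes in HFD-T070 5% of 2.24 (adjusted p = 8.70e-06 from edgeR) for Pla2g7 and 2.35 (adjusted p = 0.00165) for Alox5. In the library labelled HFD replicate 1 they had 7.87 and 0.209 CPM, near the ND means. Without that library the log2 fold changes in HFD were 3.44 (adjusted p = 5.98e-13 from edgeR) for Pla2g7 and 3.92 (adjusted p = 1.08e-08) for Alox5.

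Sqle, the squalene epoxidase of cholesterol synthesis, went the other way. It fell from 9.96 ± 5.06 CPM in ND to 3.47 ± 1.93 CPM in HFD and 1.70 ± 0.394 CPM in HFD-T070 5%, with log2 fold changes against ND of −1.54 (adjusted p = 7.16e-05 from edgeR) and −2.54 (adjusted p = 1.81e-06). Without HFD replicate 1 the first was −1.80 (adjusted p = 1.04e-06 from edgeR). Lipg, the endothelial lipase that hydrolyses phospholipids of lipoproteins, was called lower than ND in HFD-T070 5%, with a log2 fold change of −3.63 (adjusted p = 2.30e-04 from edgeR). In HFD its value was −1.20 (adjusted p = 0.105), and without HFD replicate 1 it was −2.73 (adjusted p = 5.17e-06 from edgeR). Lipg had 113 CPM in that library and 3.70 to 18.9 CPM in the other 7 HFD libraries, against 45.7 ± 25.2 CPM in ND (SD, n = 8). Acly, the ATP citrate lyase that supplies acetyl-CoA for lipid synthesis, was likewise called in HFD without that library and not with it. Its log2 fold change was −1.35 (adjusted p = 0.213 from edgeR) with all HFD libraries and −4.65 (adjusted p = 1.46e-07) without HFD replicate 1, which had 3108 CPM where the other 7 had 33.4 to 72.3 CPM.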

How the data were processed

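Directional libraries were made by the authors from RNA depleted of ribosomal RNA and sequenced for 75 cycles from 1 end. Trimming used Trimmomatic 0.36, and STAR 2.7.10 aligned the reads to MesAur1 and counted them per gene. The values they deposited are whole-number counts per gene, neither normalized nor filtered. The annotation release and the strand setting are not given in the sources used here. How reads of overlapping genes, or of similar stretches of Mboat1 and Mboat2, were handled was not checked.

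Columns were matched to libraries by the labels. Within groups, libraries differed beyond sampling noise (chi-square over its degrees of freedom 8.21 or more in every pair). Genes were kept by filterByExpr (minimum count 10, minimum total 15), and TMM, glmQLFit (quasi-dispersions of edgeR 4, legacy off) and glmQLFTest of edgeR 4.0.16 in R 4.3.3 were run once over the 24 libraries with the 3 groups, with Benjamini–Hochberg adjustment over 13134 genes and a threshold of 0.05. The standard error of a log2 fold change is its size over the root of F, and the 95% interval of a fold change used 21 residual degrees of freedom. Log2 CPM used a prior count of 2. Permutation tests on the ratio were exact over 12870 splits, of which the smallest p is 1.55e-04, and those on correlations ran over all pairings, in Python 3.11.15. The procedures were tested on simulated data.

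The members, lists and tests were chosen with earlier results of these data known. Named genes were the members, 7 lipid enzymes paired with an identifier by the study, and the genes most like each member. The RefSeq table at hand holds no Ensembl identifiers, so lists of acyltransferases and of cell type markers, including a check of the tissue, were not analysed here. Alternatives were other normalizations, tests, filters, groups in the fit, replicate blocks, counts added before logs and libraries left out. The quasi-dispersions of edgeR 3, and the lipid enzymes without HFD replicate 1, were added after the data were seen.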

Additional observations from a re-analysis of the deposited data

Results flagged for a closer look

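In 9 groups of 8 values (log2 CPM of Mboat1, log2 CPM of Mboat2 and their log2 ratio in each diet group), the gap from the highest or lowest value to its nearest neighbour was set against the range of the group with Dixon's critical value at the 95% level. Chance passes this in about 1 of 20 groups, and it was passed once. The log2 CPM of Mboat2 in the library labelled HFD replicate 1 was −2.45, where the other HFD libraries ran from −0.49 to 1.13. That library held 1 count of Mboat2 and 5 of Mboat1, and over all genes tested its r with the ND mean was 0.990. The cause was not tested.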

How the results depend on the processing

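The log2 fold changes of Mboat1 and Mboat2 kept their direction and their side of the threshold in all alternatives that could give a value. Both genes have under 10 counts in some library, so the filter of 10 counts in every library gave none, and with only the 2 groups compared in the fit neither gene passed the filter in the comparisons with ND. Over these alternatives the log2 fold change in HFD compared with ND ran from 2.40 to 2.95 for Mboat1 and from 1.90 to 2.42 for Mboat2, and in HFD-T070 5% compared with ND from 1.33 to 1.64 (adjusted p from 7.27e-04 to 0.0181) and from 0.37 to 0.82 (adjusted p from 0.221 to 0.600). Library totals in place of TMM moved the median of all genes to 0.29 in HFD compared with ND and 0.21 in HFD-T070 5% compared with ND, and gave the upper ends for Mboat1, 2.95 and 1.64. The numbers of genes called stayed within 1.5 times.

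Same-numbered libraries were not treated as paired. Their deviations from the group means correlated at −0.242 to 0.495, and at most 2 of 8 correlated best with their own number. Grouping under other numbers, such as by shared cages, was not tested. With the replicate number as a block, the log2 fold change in HFD-T070 5% compared with ND was 1.40 for Mboat1 (adjusted p = 0.00479) and 0.60 for Mboat2 (adjusted p = 0.387), and the block changed no call.

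The within-group correlations depended on single libraries. With each library left out in turn, r ran from 0.846 (adjusted p = 0.0714, without HFD replicate 1) to 0.969 in HFD, from −0.160 (without ND replicate 5) to 0.654 in ND, and from −0.277 to 0.344 in HFD-T070 5%, where it was positive without replicate 1, 3 or 6. Without the 2 libraries farthest from the median of Mboat1 it was 0.856 in HFD (adjusted p = 0.175) and 0.186 in HFD-T070 5%. The difference in the paralog ratio from ND ran from −0.68 to −0.25 for HFD and from −0.93 to −0.49 for HFD-T070 5% with each library left out, the smallest sizes without ND replicate 4, and by medians it was −0.21 and −0.50. None of these passed the threshold. Between HFD-T070 5% and HFD it ran from −0.40 to 0.0021, the last without HFD-T070 5% replicate 6. Counts of 1 to 10 per ND library limit every comparison with that group.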
